A study of Mus musculus with 10 samples.

Results

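The 6384 regions described here were strong autosomal Ctcf summits that had no Rad21 summit nearby. They were chosen by the Ctcf and Rad21 lists themselves, as Ctcf summits with a −log10 q of at least 5 and no listed Rad21 summit within 1 kb, in wildtype (WT) cells. They made up 17.5% of the 36545 strong autosomal Ctcf summits and 7.15% of all 89238 autosomal Ctcf summits. The other 30161 strong summits, which had Rad21 within 1 kb, served as the comparison sites. Positions taken every 10 kb along the 19 autosomes, 239565 in all, gave the level of each feature in the genome at large.

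The lists came from chromatin immunoprecipitation followed by sequencing (ChIP-seq) in AB17 cells. AB17 is a line of primary hepatocytes from the liver of a C57BL/6 mouse with floxed Arid1a (Arid1a fl/fl), immortalized with SV40LT and also transduced with H-Ras V12D, so both genotypes carried these changes. The lists hold no expression, and the hepatocyte identity of this single line was not checked here. WT cells had received the control adenovirus Ad-GFP and knockout (KO, Arid1a-/-) cells had received Ad-Cre. Ctcf, Rad21, Brg1 and Arid1a were profiled in WT cells only, and H3K9me3 and H3K27me3 in WT and KO cells. Each group was 1 library, which leaves every difference without a replicate check, and p-values are not given. Shares carry a 95% Wilson interval and differences between shares a 95% Newcombe interval. Both cover counting error only, and neighbouring summits are not independent. The lists give 1 position per peak, with no width and no read depth, and a summit that a list lacks may have fallen under the calling threshold of that library.

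Ctcf is a zinc finger protein that binds a long, asymmetric DNA motif and stalls the extrusion of chromatin loops by cohesin. Rad21 is the cohesin subunit that closes the ring, and in most mammalian cells cohesin is found at the bulk of Ctcf sites, where it marks loop anchors and domain borders. Rodent genomes also carry many copies of the B2 element, a short interspersed repeat (SINE) derived from a tRNA, and a subset of B2 copies is known to hold a Ctcf motif. Brg1 and Arid1a are the ATPase and a DNA-binding subunit of the SWI/SNF remodelling complex.

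The sequences of the 6 strongest members outside annotated UTRs are shown first, because they show how unlike each other the strongest sites were. Each spans 50 bases on either side of the summit in GRCm38 (mm10), taken from RefSeq. Capitals mark the best match to a Ctcf matrix of 19 columns, scored in bits (log2 odds) with a threshold of 7.89, and a sequence with no capitals had no match within 50 bp of the summit. A sequence with a match was written on the strand of the match. The sites lay at chr15:103182293-103182393, minus strand (nearest protein-coding gene start Smug1, a uracil-DNA glycosylase of base excision repair), chr17:3083734-3083834, plus strand (Scaf8, a binding partner of the RNA polymerase II tail), chr10:62183191-62183291, minus strand (Fam241b), chr15:97784245-97784345, plus strand (Slc48a1, a haem transporter), chr6:47681221-47681321, plus strand (Ezh2, the methyltransferase of H3K27) and chr10:75439680-75439780, minus strand (Upb1, an enzyme of pyrimidine breakdown).
Smug1 site: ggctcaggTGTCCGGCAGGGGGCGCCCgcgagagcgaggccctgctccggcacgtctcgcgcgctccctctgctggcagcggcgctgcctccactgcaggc
Scaf8 site: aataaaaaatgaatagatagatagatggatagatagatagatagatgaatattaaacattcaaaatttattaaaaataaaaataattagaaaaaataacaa
Fam241b site: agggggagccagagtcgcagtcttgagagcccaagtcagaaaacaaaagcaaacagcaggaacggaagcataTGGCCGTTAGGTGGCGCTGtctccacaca
Slc48a1 site: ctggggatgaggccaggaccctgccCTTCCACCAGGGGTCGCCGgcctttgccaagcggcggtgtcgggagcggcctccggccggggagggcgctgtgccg
Ezh2 site: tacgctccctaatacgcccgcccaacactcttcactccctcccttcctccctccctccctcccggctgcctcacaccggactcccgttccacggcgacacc
Upb1 site: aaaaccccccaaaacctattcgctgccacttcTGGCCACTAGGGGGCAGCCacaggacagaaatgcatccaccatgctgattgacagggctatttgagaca
The strongest comparison site is shown beside them, at chr8:19784542-19784642, plus strand, near 4930467E23Rik.
4930467E23Rik site, with Rad21: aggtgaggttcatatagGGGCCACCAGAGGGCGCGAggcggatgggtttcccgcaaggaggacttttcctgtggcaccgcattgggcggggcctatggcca
The gene starts that name these 6 members lay between 5775 bp (Slc48a1) and 85930 bp (Ezh2) from the summits. Of these 6 members, 4 held a match. The Scaf8 site held short tandem repeats in its first part and A- and T-rich sequence after them, with a best matrix score of -9.16, and the Ezh2 site held a pyrimidine-rich stretch and scored 1.85.

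A second set of sequences shows B2 elements whose body carries the Ctcf match. These are the 4 strongest members at soft-masked (repeat) bases whose match began within 2 bases of position 100, counted from the start of the B2 head on the opposite strand, followed by the strongest comparison site of the same kind. The arrangement was chosen after the data had been seen. Each sequence is written along the strand of the B2 head. The first capitals are the 9 letters of the head, GAGATGGCT, and the second capitals are the Ctcf match, which reads on the other strand. The sites lay at chr4:126057111-126057241, minus strand (nearest gene start Oscp1), chr4:126992439-126992568, plus strand (Zmym4), chr19:36868845-36868975, minus strand (Tnks2), chr16:45753067-45753197, minus strand (Abhd10) and chr10:63377456-63377585, plus strand (Sirt1, a protein deacetylase), the last with Rad21.
Oscp1 site: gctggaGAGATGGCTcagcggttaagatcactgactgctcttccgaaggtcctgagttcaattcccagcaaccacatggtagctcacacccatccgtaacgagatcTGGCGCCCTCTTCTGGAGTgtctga
Zmym4 site: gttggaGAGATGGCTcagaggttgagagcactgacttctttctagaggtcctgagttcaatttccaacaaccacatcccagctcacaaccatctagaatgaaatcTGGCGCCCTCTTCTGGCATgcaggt
Tnks2 site: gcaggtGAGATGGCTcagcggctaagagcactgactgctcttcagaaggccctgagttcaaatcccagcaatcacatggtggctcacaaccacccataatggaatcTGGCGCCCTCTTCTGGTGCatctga
Abhd10 site: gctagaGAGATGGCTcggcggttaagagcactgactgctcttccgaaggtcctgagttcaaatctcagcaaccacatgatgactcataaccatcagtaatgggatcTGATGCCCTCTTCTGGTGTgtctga
Sirt1 site, with Rad21: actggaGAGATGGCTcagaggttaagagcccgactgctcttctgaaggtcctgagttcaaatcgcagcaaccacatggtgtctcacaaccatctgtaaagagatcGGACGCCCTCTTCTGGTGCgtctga
All 5 held the word CCCTCTTC inside the second run of capitals, which is GAAGAGGG on the strand of the Ctcf match.

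The members were checked first for the sequence their label implies. A Ctcf matrix was learned on 1041 strong Ctcf summits of chromosome X, which the choice of members left out. Of these, 233 (22.4%) had no Rad21 summit within 1 kb, so most were of the comparison kind. Whether this lowers the match share of members was not tested. The matrix was scored on both strands within 50 bp of each summit, against a threshold that 5% of the grid positions passed. A match was found at 43.1% of members (2753 of 6384, interval 41.9 to 44.3), at 61.9% of comparison sites (61.3 to 62.4) and at 58.6% of all strong autosomal Ctcf summits. The difference was -18.8 percentage points (-20.1 to -17.4), and the members were lower on 19 of 19 autosomes. Where a match was found, its median score was 18.6 in members and 18.3 in comparison sites, and its centre lay a median of 18 bp and 17 bp from the summit. Ctcf summits under 5 without Rad21 serve as a further reference, and 17.3% of their 33058 windows held a match. A match is a description of letters, and its absence says only that this matrix found none in this window.

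The lower share went with the strength of the summits. Members and comparison sites had the same lower limit of 5, and above it members were weaker. The median −log10 q was 7.07 in members (quartiles 5.53 and 9.67, highest 165.5) and 21.6 in comparison sites. Members made up 46.3% of strong summits with a −log10 q from 5 to 7, 33.1% of those from 7 to 10, 13.1% of those from 10 to 20 and 2.05% of those of 20 and over. Within these 4 classes the matrix match was found at 34.5%, 46.8%, 55.8% and 65.4% of members and at 32.6%, 44.7%, 57.0% and 74.9% of comparison sites. The intervals of the difference included 0 in the first 3 classes. At 20 and over the difference was -9.52 points (-14.8 to -4.55).

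**Figure D1:**
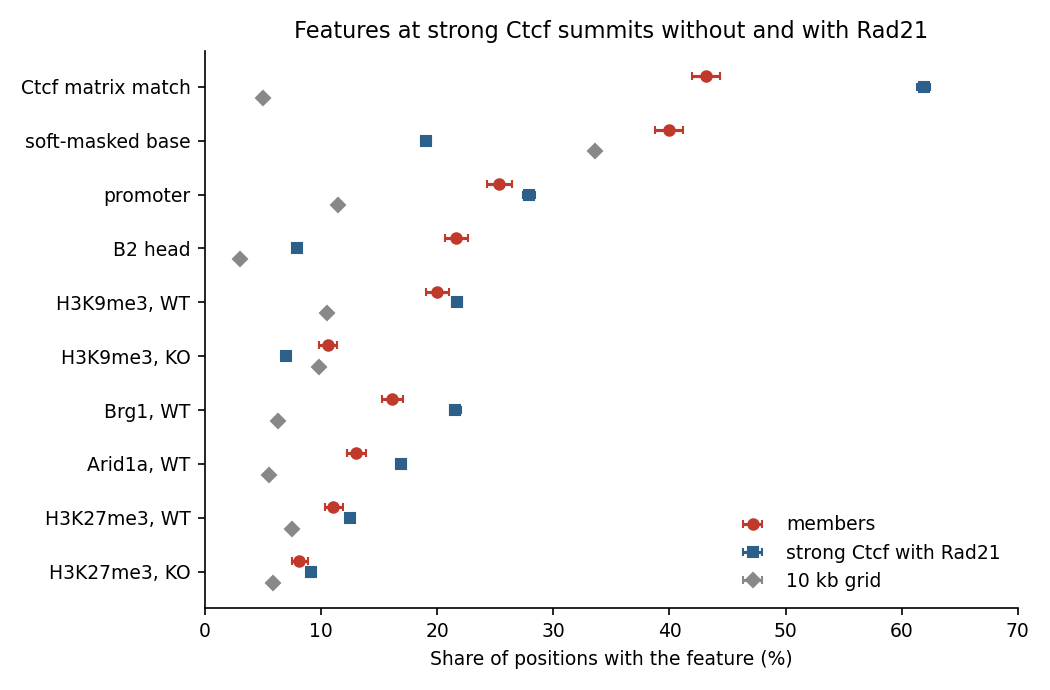
Share (%) of members, of strong Ctcf summits with Rad21 and of grid positions that have each feature, with 95% Wilson intervals. Members sit to the right of the comparison sites for the soft-masked base, the B2 head and KO H3K9me3, and to the left for the Ctcf match, Brg1 and Arid1a.

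Of the 10 features compared, the B2 head differed most in proportion between members and comparison sites. The letters GAGATGGCT were found on either strand within 250 bp of the summit at 21.6% of members (1381 sites, interval 20.6 to 22.7), at 7.91% of comparison sites (7.61 to 8.22) and at 2.997% of grid positions of the same width. Ctcf summits under 5 without Rad21 had it at 14.8%. All strong autosomal Ctcf summits together had a share of 10.3%. The difference was 13.7 points (12.7 to 14.8), and the member share was the higher on 19 of 19 autosomes. The member share was also the higher within each class of strength, with 23.3% against 14.9% from 5 to 7, 23.0% against 14.9% from 7 to 10, 18.8% against 10.2% from 10 to 20 and 7.23% against 3.67% at 20 and over. In this last class the difference was 3.56 points (1.22 to 6.88). With the comparison sites weighted to the classes of the members, the difference was 8.09 points.

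The Ctcf match recurred at certain distances from the B2 head. Of the 1381 members with a B2 head, 700 (50.7%) also had a Ctcf match, and the match began within 2 bp of 100 bp after the head on the opposite strand in 344 of these (49.1%) and 61 to 63 bp after it on the same strand in 105 (15%). The single commonest arrangement was an offset of 100 bp on the opposite strand, seen in 220 pairs of head and match. Comparison sites showed the same offsets, in 433 (31.8%) and 119 (8.74%) of 1362 sites with both features. The match lay at neither offset in 251 of the 700 members and in 810 of the 1362 comparison sites. Taken over all sites, 7.03% of members and 1.83% of comparison sites had a match at one of these offsets. The head and the matrix share letters, and the match overlapped the head in 1 member and 4 comparison sites. Both windows were fixed after the offsets had been seen. The Ctcf score was searched within 50 bp of the summit and the head within 250 bp. Whether the search shaped these offsets was not tested.

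**Figure D2:**
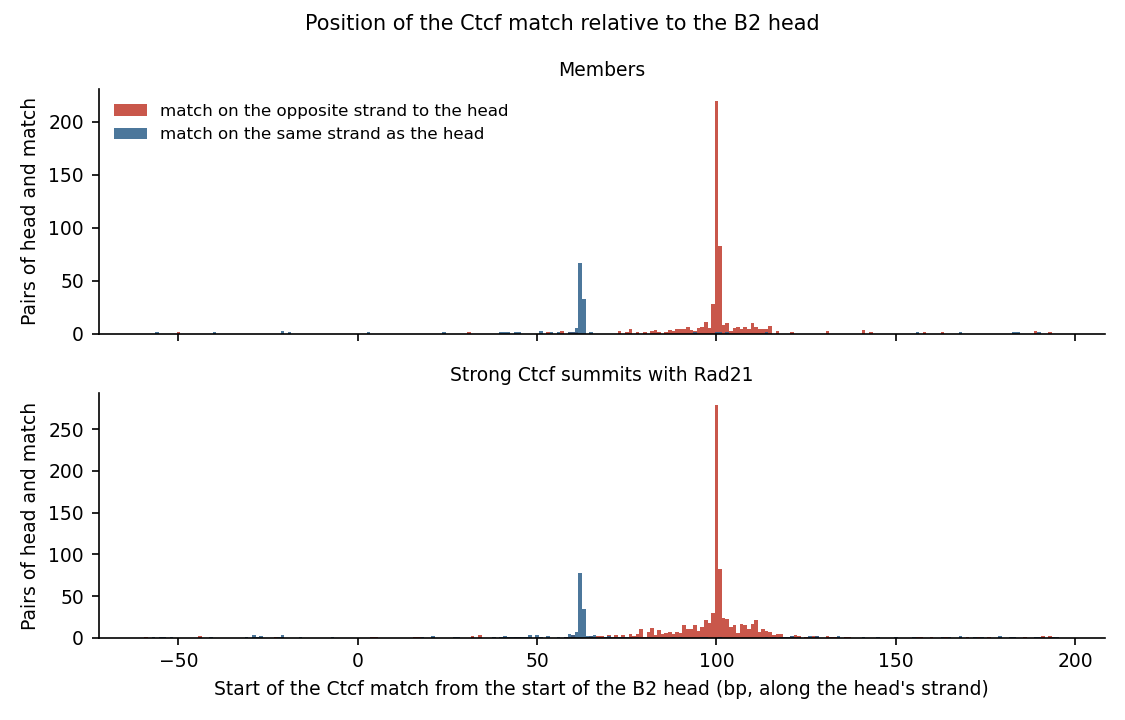
Start of the Ctcf match relative to the start of the B2 head, in bp along the strand of the head, for members and for strong Ctcf summits with Rad21 that held both. Bars count pairs of head and match. In both panels the tallest bar stands at 100 bp on the opposite strand and a lower one at 62 bp on the same strand.

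Words of 8 letters within 50 bp of the summits described the same difference without a matrix. The words that exceeded the comparison sites most were AGAAGAGG, present at 15.7% of members and 7.83% of comparison sites, and its neighbours CCCTCTTC (15.5% and 7.75%) and CAGAAGAG (16.0% and 8.30%). These overlap in 1 longer stretch, and the Ctcf matches of the B2 sequences above contain it. Next came words of the B2 body upstream of the match, such as CTCACAAC (9.27% and 3.11%, against 0.698% of grid windows) and ACCATGTG (9.26% and 3.29%). The words lower in members were AGGTGGCA (1.504% and 5.25%), CTGCCACC (1.22% and 4.56%) and CCACTAGA (1.38% and 4.46%), which are forms of the Ctcf core and its flank. Every word was counted once per window on either strand.

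Repeats as a whole were also commoner at member summits than at comparison sites. The summit base was soft-masked at 39.9% of members (38.7 to 41.1), 19% of comparison sites (18.6 to 19.5), 33.6% of grid positions and 22.7% of all strong summits. The difference was 20.9 points (19.7 to 22.2) and had the same sign on 19 of 19 autosomes. It was 11.7 points from 5 to 7, 11.8 from 7 to 10 and 10.7 from 10 to 20. At 20 and over, 12.3% of members and 10.9% of comparison sites were masked, and the interval of the difference (-1.74 to 5.42) included 0. Ctcf summits under 5 without Rad21 were masked at 34.3%. A B2 head was found at 42.3% of the masked members, while 23.0% of all members and 13.8% of comparison sites were masked without a B2 head. This last share was 32.2% on the grid and 24.2% at Ctcf summits under 5 without Rad21, so members were below the genome at large in repeats without a B2 head. Against comparison sites its difference went from 4.65 points (2.67 to 6.64) between 5 and 7 to -0.548 (-3.17 to 3.01) at 20 and over. The soft-masking marks repeats in the reference sequence, and how many reads map to more than 1 copy is unknown from the lists, so the part of read mapping in this difference was not tested.

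Split by these sequence features, the members fell into 3 groups. The 1381 members with a B2 head had a median −log10 q of 6.66, and 47.8% of them lay in introns. The 2053 members with a Ctcf match and no B2 head were the strongest, with a median of 7.91, and lay farthest from Rad21, at a median of 6436 bp. The largest group, 2950 members (46.2%), had neither feature and a median of 6.26. H3K27me3 in WT cells was near 5.21% of members with a B2 head, 11.5% of those with a match alone and 13.5% of those with neither. Comparison sites also had their lowest share with a B2 head, at 7.04%, 13.04% and 12.8% in the same 3 groups. Among comparison sites the match alone was the commonest state, at 57.4%, and neither feature was found at 34.7%.

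**Figure D3:**
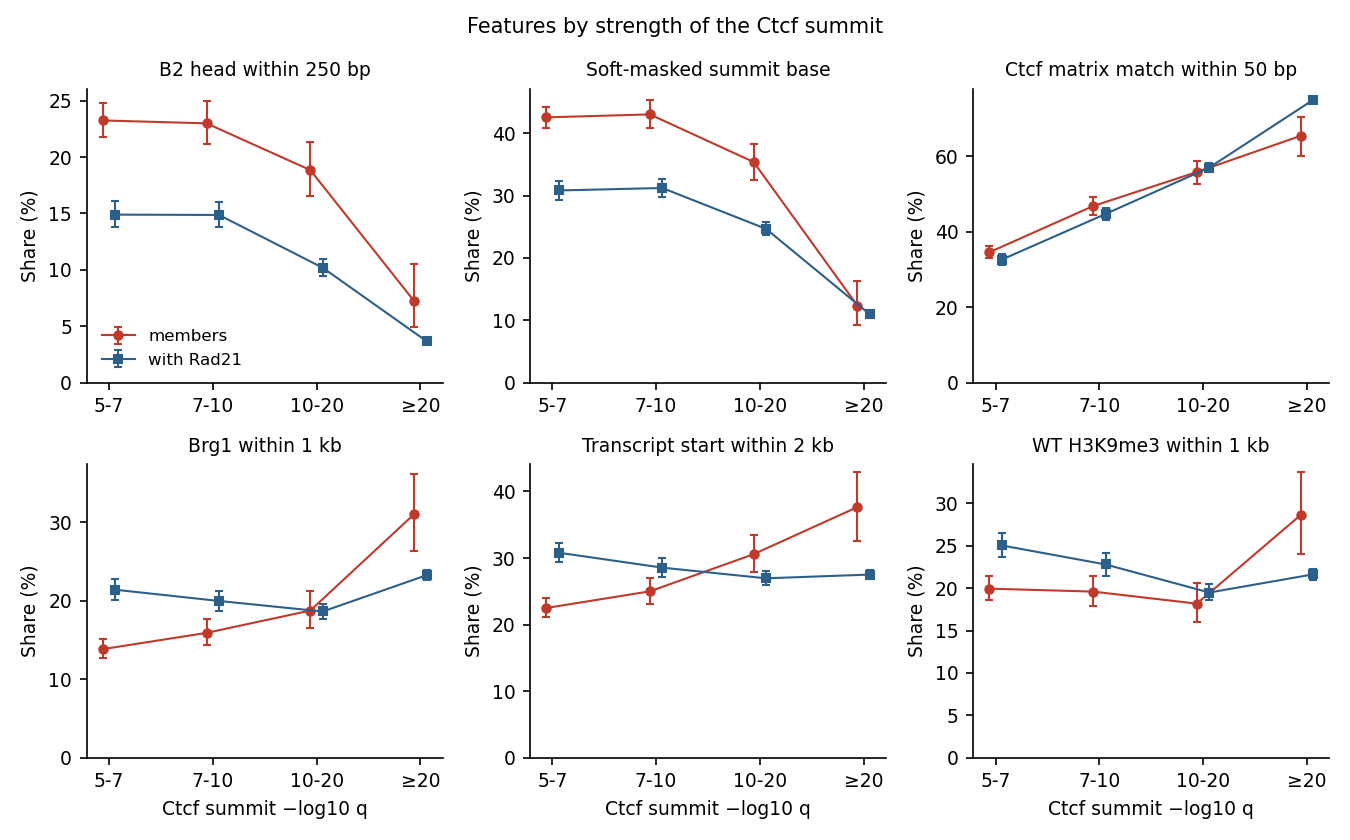
Share (%) of members and of strong Ctcf summits with Rad21 that have each of 6 features, by class of the Ctcf −log10 q, with 95% Wilson intervals. The member line stays above the other for the B2 head, while the Brg1, transcript start and H3K9me3 lines cross, with members higher at 20 and over.

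Next, the SWI/SNF lists of WT cells were compared, since the study asked how this complex relates to cohesin. A Brg1 summit lay within 1 kb of 16.1% of members (1030 sites, 15.2 to 17.1), 21.6% of comparison sites and 6.29% of grid positions, and 20.6% of all strong Ctcf summits had one. An Arid1a summit lay within 1 kb of 13.02% of members (831 sites, 12.2 to 13.9), 16.8% of comparison sites and 5.46% of grid positions, against 16.2% of all strong summits. The differences were -5.42 points (-6.42 to -4.39) and -3.83 points (-4.74 to -2.88), and members were higher on 1 of 19 autosomes in each case. Both subunits were near 5.62% of members and 8.74% of comparison sites. Members at promoters had Brg1 in 27.6% of cases and Arid1a in 21.6%, and comparison sites at promoters in 37.4% and 31.4%. Away from promoters the Brg1 shares were 12.3% and 15.4% and the Arid1a shares 10.1% and 11.2%.

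The direction of the SWI/SNF difference turned with the strength of the Ctcf summit. From 5 to 7, Brg1 was near 13.8% of members and 21.4% of comparison sites, a difference of -7.55 points (-9.34 to -5.75). From 10 to 20 the shares were 18.8% and 18.6%, with an interval that included 0. At 20 and over, 31.0% of the 332 members and 23.2% of comparison sites had Brg1, a difference of 7.78 points (2.995 to 12.99). Arid1a followed the same course, from -6.96 points (-8.67 to -5.23) in the lowest class to 4.26 points (0.146 to 9.02) in the highest. Restricted to a −log10 q of at least 10, the differences were -0.124 points for Brg1 and 0.338 points for Arid1a. The promoter share turned in the same way, from -8.31 points between 5 and 7 to 10.1 points at 20 and over. Strength and promoters were not separated, so the part of promoters in the SWI/SNF turn was not tested.

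H3K9me3 in WT cells was near similar shares of members and comparison sites in all, but the difference turned with strength, while in KO cells it was higher at members. In WT cells, an H3K9me3 summit lay within 1 kb of 20% of members (19.04 to 21), 21.7% of comparison sites, 10.5% of grid positions and 21.4% of all strong summits. The WT difference went from -5.08 points (-7.05 to -3.10) between 5 and 7 to 6.995 points (2.36 to 12.1) at 20 and over, where 28.6% of members and 21.6% of comparison sites had the mark. At promoters 24.9% of members and 32.7% of comparison sites had it in WT cells, and away from promoters 18.4% and 17.4%. In KO cells the shares were 10.6% of members (9.84 to 11.4), 6.93% of comparison sites, 9.82% of grid positions and 7.57% of all strong summits. Ctcf summits under 5 without Rad21 had KO H3K9me3 at 10.7%, close to the members, and WT H3K9me3 at 19.5%. The KO difference was 3.64 points (2.85 to 4.47), with members higher on 19 of 19 autosomes. It was above 0 in all 4 classes of strength, from 1.36 points (-0.325 to 3.32) between 10 and 20 to 3.33 points (0.672 to 6.92) at 20 and over. Counted by site, 1003 members had H3K9me3 in WT cells only, 401 in KO cells only and 274 in both. The ratio of KO to WT sites was 0.529 at members, 0.320 at comparison sites and 0.934 on the grid, where the whole autosomal lists had a ratio of 0.928. The order was the same at masked and unmasked summits, with KO H3K9me3 at 12.3% and 9.42% of members against 9.89% and 6.24% of comparison sites. At promoters KO H3K9me3 was near 8.41% of members and 6.91% of comparison sites, and away from promoters 11.3% and 6.94%. Genotype cannot be told apart here from the depth and enrichment of the single libraries.

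H3K27me3, the Polycomb mark, differed little. In WT cells it was near 11.0% of members (10.3 to 11.8), 12.5% of comparison sites, 7.47% of grid positions and 12.2% of all strong summits, a difference of -1.45 points (-2.29 to -0.576). In KO cells it was near 8.13% of members, 9.09% of comparison sites, 5.89% of grid positions and 8.92% of all strong summits. With partners counted only within 250 bp, the WT difference was 0.811 points and so of the other sign. The KO to WT ratio was 0.736 at members and 0.727 at comparison sites. None of the Brg1, Arid1a, WT H3K9me3 and WT H3K27me3 lists had a summit within 1 kb of 55.4% of members (3539 sites), and of 50.2% of comparison sites. This share was 51.1% at all strong summits, 56.4% at Ctcf summits under 5 without Rad21 and 75.3% on the grid. At 20 and over it was 41.6% of members and 48.0% of comparison sites, a difference of -6.47 points (-11.7 to -1.04). All 4 were found at 8 members (0.125%) and at 46 comparison sites (0.153%).

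The gene context was similar in outline. A transcript start lay within 2 kb of 25.3% of members (1617 sites, 24.3 to 26.4), 27.9% of comparison sites, 11.5% of grid positions and 27.5% of all strong summits. Of the remaining sites, introns held 40.3% of all members and 34.1% of comparison sites, a difference of 6.21 points (4.897 to 7.53). Intergenic positions held 30.9% and 34.5%, and exons 3.45% and 3.48%. The intron share was 37.4% on the grid, 35.2% at all strong summits and 41.6% at Ctcf summits under 5 without Rad21. The intron difference also turned with strength. It was 6.27 points (3.95 to 8.59) between 5 and 7 and -8.59 points (-12.9 to -3.69) at 20 and over. The promoter share of members rose with strength, from 22.5% between 5 and 7 to 37.7% at 20 and over, while that of comparison sites went from 30.8% to 27.5%. The difference was thus -8.31 points (-10.4 to -6.22) in the lowest class and 10.1 points (5.04 to 15.5) in the highest. GC-rich windows with many CpGs (GC of at least 55% and an observed to expected CpG ratio of at least 0.6 over 501 bp) were found at 3.95% of members and 7.57% of comparison sites, but at 14.8% and 7.64% at 20 and over. The median GC content was 43.9% around members, 46.5% around comparison sites and 41.7% on the grid.

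Single-gene counts followed. A member lay within 2 kb of the start of 759 of 20807 autosomal protein-coding genes (3.65%), and a comparison site near 4715 (22.7%). Within the gene or 10 kb of its ends these counts were 5098 genes (24.5%) and 13890 (66.8%). Of the 693 members within 2 kb of such a start, 356 (51.4%) lay upstream. The clustered protocadherins, adhesion genes whose promoter choice in neurons is known to depend on Ctcf, were 1 of the listed families. A member lay at 14 of their 57 starts (24.6%), and a comparison site at 13 (22.8%), with 0 starts in common. Over all protein-coding genes 156 starts had both (0.750%), which is 20.6% of the starts with a member and 3.31% of those with a comparison site. The 14 protocadherin starts with a member were 3 of 14 Pcdha, 8 of 22 Pcdhb and 3 of 21 Pcdhg genes. No Pcdha start had a comparison site. Of these 14 members, 11 were within 200 bp of the start and 12 had no Rad21 within 5 kb, and their −log10 q values ran from 5.48 to 21.8 with a median of 7.07. A Ctcf match was found at 6 of them, Brg1 within 1 kb of 0, Arid1a of 1 and WT H3K9me3 of 4. Among all members at promoters these shares were 41.2%, 27.6%, 21.6% and 24.9%. Single genes of this cluster were picked after their values had been seen. At Pcdhb6 the member lay 118 bp from the start with a −log10 q of 15.5, and Rad21 was 21247 bp away. At Pcdhga4 these values were 30 bp, 21.8 and 4809 bp. At Pcdha4 they were 541 bp, 7.91 and 57677 bp. The genes lie close together on chromosome 18 and are known to be alike in part. Whether reads were shared among them was not tested.

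Other families were fewer. A member lay at 9 of 67 starts in the histone clusters (13.4%), where the 9 starts shared 4 members, 3 of them with Brg1 and 3 with Arid1a. Among 79 ribosomal protein genes, 9 had a member (11.4%) and 29 a comparison site (36.7%). The 9 members had −log10 q values from 6.22 to 80.8, and 5 had Brg1 and 5 had Arid1a within 1 kb. Among all members at promoters, 27.6% had Brg1 and 21.6% had Arid1a. Zinc finger genes named Zfp had a member at 16 of 388 starts (4.12%), close to the share of all genes. Olfactory and vomeronasal receptor genes had one at 2 of 1457 (0.137%), Olfr148 and Olfr554. No member was found at the start of 39 Hox genes, 80 cytochrome P450 genes of families 1 to 4, 29 imprinted genes or 27 genes of hepatocyte plasma proteins. Nor was one found at the 18 cohesin and Ctcf genes, the 19 genes of cell cycle brakes and p53 or the 6 genes singled out by the study. The share of all genes was 3.65%, at which lists this short would hold few such starts, so these counts set no list apart. Comparison sites lay at 11 Hox, 2 cytochrome P450, 9 imprinted and 3 plasma protein starts. They lay at 8 cohesin and Ctcf starts, 10 brake starts and 0 of the 6. Within 10 kb of the gene, members were found at 4 of the 29 imprinted genes (Ins2, Kcnq1, Magel2 and Commd1), 2 of the 27 plasma protein genes (Serpina3k and Itih4) and 1 of the 6 genes of the study's own (Rnf125), all named after the counts had been seen. Near Ins2, which lies beside the Igf2 and H19 domain, there were 4 members and 3 comparison sites. They were also found at 6 of the 18 cohesin and Ctcf genes (33.3%), among them Ctcf itself and Smc3 with 2 members each, and at 8 of the 19 brake genes (42.1%), among them Rb1 and Trp53 with 1 each and Mdm4 with 3. Of the 24 SWI/SNF genes 9 had a member within 10 kb (37.5%), and Smarca4, which encodes Brg1, had 2. These shares stand beside the 24.5% of all genes, and comparison sites lay at 14, 17 and 21 genes of the same 3 lists against 66.8% of all genes.

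Of the 20 hepatocyte transcription factor genes 1 had a member at its start. This was Cebpb, a leucine zipper factor of hepatocytes and the acute phase response, with a member on chromosome 2 at 167688687. The summit lay 228 bp upstream of the start and inside an intron of another annotated gene, with a −log10 q of 60.95, a Ctcf match and the nearest Rad21 summit 3305 bp away. Of 24 SWI/SNF subunit genes 2 had a member at their start. These shares of 5% and 8.33% stand beside 3.65% of all genes, and lists this short do not set them apart. Comparison sites lay at 9 of the 20 and 9 of the 24 starts, against 22.7% of all genes. Pbrm1, the bromodomain subunit of the PBAF form, had a member on chromosome 14 at 31018176, 962 bp upstream (−log10 q 9.89), with Rad21 16887 bp away, and a second 1945 bp downstream (5.48) with a B2 head nearby. Neither held a Ctcf match. Bcl7a, an accessory subunit, had a member on chromosome 5 at 123342043, 1791 bp upstream (7.07), at a masked base, with a match and with Rad21 1834 bp away.

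The distance to Rad21 was set from below by the choice of members, and is described here beyond 1 kb only. The nearest Rad21 summit lay a median of 4696 bp from members (quartiles 1910 and 13682 bp). Grid positions over 1 kb from Rad21 had a median of 22428 bp. Rad21 lay between 1 and 2 kb from 26.7% of members (1706 sites) and over 5 kb from 48.2% (3074 sites), against 5.48% and 82.5% of such grid positions. Members also lay nearer to comparison sites than the grid did, with 28.2% and 11.1% within 5 kb. Just inside and outside the limits of the choice, 37 members had a −log10 q under 5.1 and 97 summits without Rad21 had one between 4.9 and 5. Rad21 lay between 1000 and 1100 bp from 253 members, and between 900 and 1000 bp from 264 strong summits that were left out. Comparison sites had Rad21 at a median of 67 bp, and 99% of them within 888 bp.

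Members in the top class of strength lay nearer to Rad21 than those in the 3 lower classes, which showed no steady order. Ctcf strength and Rad21 distance both entered the choice of members, so this is a description only. Members were 2.05% of the strong summits in the top class. The median distance was 4481, 5656 and 5637 bp in the 3 lower classes and 1971 bp at 20 and over. In this top class 169 of 332 members (50.9%) had Rad21 between 1 and 2 kb away, and 22.9% had none within 5 kb. The Rad21 summits concerned had a −log10 q of at least 5 in 103 cases (60.95%) and a median of 7.90. In the 3 lower classes the share of at least 5 was 40.75%, 28.75% and 24.15%. Only 36 of the 169 Rad21 summits of the top class (21.3%) had a Ctcf summit of their own within 1 kb, where 68.2% did in the class from 5 to 7. As the lists give no peak widths, whether a Rad21 peak reached back over the Ctcf summit was not analysed here.

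**Figure D4:**
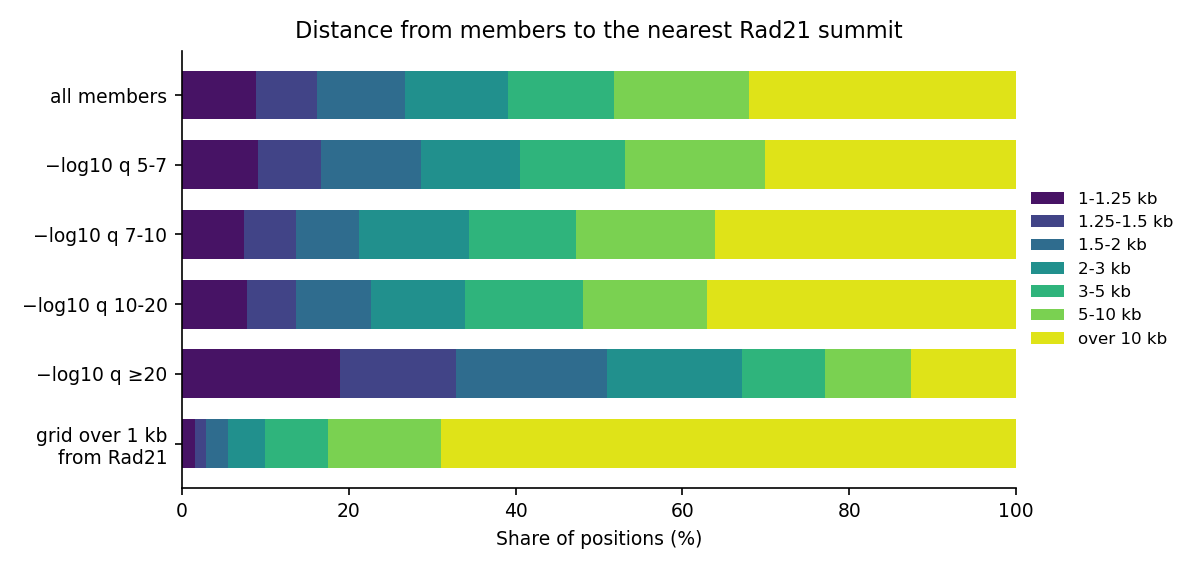
Share (%) of members, in all and by class of the Ctcf −log10 q, whose nearest Rad21 summit lay in each distance range, with grid positions over 1 kb from Rad21 for reference. The bars of the top class hold the largest share within 2 kb (50.9%), and the grid holds the largest share over 10 kb (68.9%).

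Among the 15 strongest members, with −log10 q values from 83.3 to 165.5, the nearest Rad21 summit lay 1054 to 4866 bp away with a median of 1715 bp, and at 0 of them was it over 5 kb away. A Ctcf match was found at 11, a B2 head at 0, a masked base at 3 and a transcript start within 2 kb at 8. Brg1 was within 1 kb of 8, Arid1a of 4 (near Scaf8, Elovl3, Pdia4 and Rex1bd), WT H3K9me3 of 9, KO H3K9me3 of 3, WT H3K27me3 of 5 and KO H3K27me3 of 1 (near Elovl3). Among the 332 members at 20 and over, 65.4% had a match, 7.23% a B2 head, 12.3% a masked base and 37.7% a transcript start. In that class Brg1 was near 31.0%, Arid1a 21.4%, WT H3K9me3 28.6%, KO H3K9me3 9.04%, WT H3K27me3 14.8% and KO H3K27me3 11.1%. The strongest, near Smug1 at 165.5, was intergenic and 15251 bp upstream of the gene, with a weak Rad21 summit (2.77) 1715 bp away. The Upb1 site at 108.5 was intronic, lay 38615 bp from the start of Upb1 and had a strong Rad21 summit (49.0) 2909 bp away. Near Gnai2, a G protein subunit (chromosome 9 at 107644763, intergenic), and Elovl3, a fatty acid elongase (chromosome 19 at 46137297, an intron within 2 kb of an annotated transcript start), the members reached 89.1 and 94.1, and Rad21 summits of 68.2 and 64.5 stood 1054 and 1816 bp away. The others of the 15 were nearest to Mex3d, Abhd11, Pdia4, Chpf2, Rex1bd, Pdzd8 and Tmem163. Their distances to these gene starts ran from 9 bp at Rex1bd to 182647 bp at Tmem163.

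The members that also had both SWI/SNF subunits within 1 kb numbered 359. The 5 strongest of them were nearest to Scaf8, Pdia4 (a protein disulfide isomerase), Rex1bd, Rplp0 and Dnm1 (dynamin). The Scaf8 site, at 151.3, had Brg1 at 108 bp and Arid1a at 41 bp. At Rplp0, a ribosomal stalk protein, the member (chromosome 5 at 115559289) lay 178 bp upstream of the gene start and reached 80.8, with a Ctcf match. It had Brg1 at 354 bp with a −log10 q of 19.7 and Arid1a at 367 bp with 15.2, and Rad21 was 2895 bp away. At Rex1bd the member (chromosome 8 at 70506761) lay 9 bp upstream of the start, with Arid1a at 46 bp and Brg1 at 134 bp. The 5 strongest with WT H3K27me3 lay near Ezh2, Upb1, Pdia4, Gnai2 and Tmem163, with the mark 693 to 979 bp from the summit. The 5 strongest with WT H3K9me3 lay near Smug1, Slc48a1, Ezh2, Elovl3 and Abhd11. The Ezh2 and Pdia4 sites, on chromosome 6 at 47681271 and 47740076, lay 85930 and 73354 bp from the start of the gene they are named for and had no Ctcf match.

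Chromosomes differed little in how many of their strong Ctcf summits were members. The share ran from 14.7% on chromosome 16 to 20.4% on chromosome 12. The share of members with a B2 head varied more, from 9.68% on chromosome 13 and 10.9% on chromosome 14 to 26.1% on chromosome 11 and on chromosome 18. Comparison sites on chromosomes 13 and 14 were also the lowest, at 3.98% and 3.85%.

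**Figure D5:**
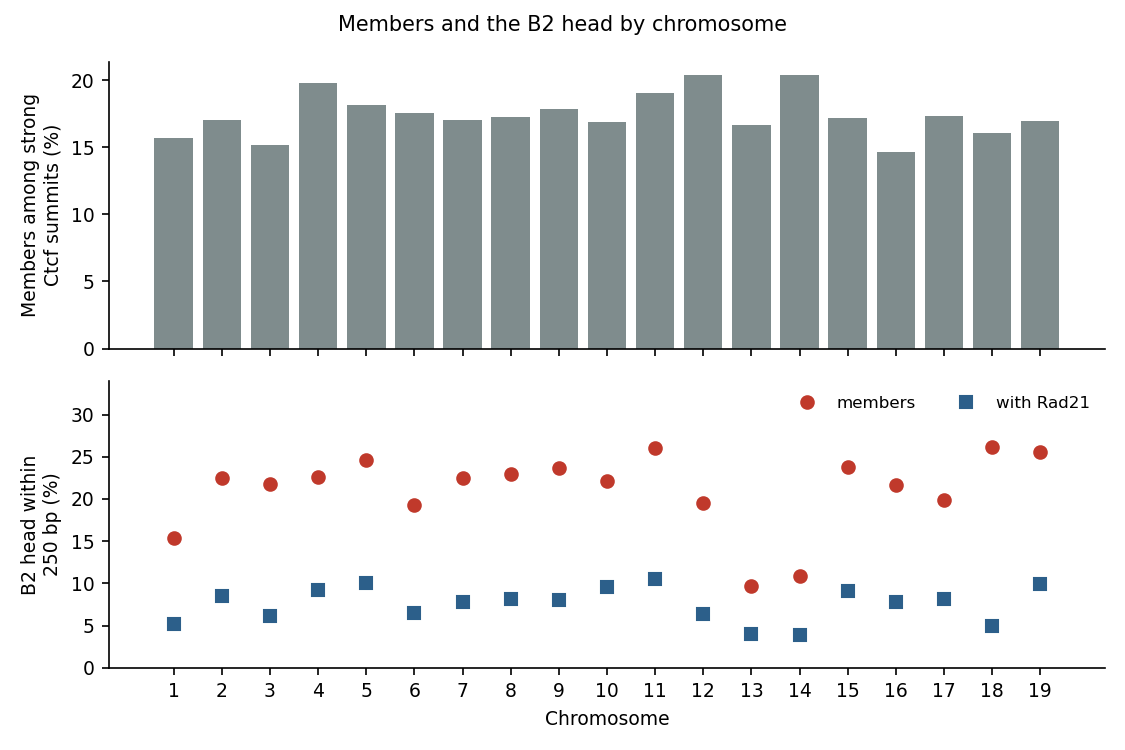
Share (%) of strong Ctcf summits that were members (bars) and share (%) of members and of strong Ctcf summits with Rad21 that had a B2 head within 250 bp (points), for each autosome. The member points stand above the others on all 19 autosomes.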

How the data were processed

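Peak lists of 8 of the 10 samples were analysed, and the 2 inputs entered only through peak calling. The study's methods name Bowtie2 for alignment to mm10, SAMtools for dropping low-quality reads and Picard for duplicates. The authors then ran MACS2 with its defaults against input. Versions are not given in the sources used here. The deposited lists give 1 summit per peak and a −log10 q-value, of which the lowest was 1.30, and depth is unknown. The members and lists were chosen with earlier results of these data known.

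A partner summit up to 1000 bp away counted as near. Genes were GENCODE vM21 and sequences GRCm38. The place of a site was promoter (2 kb from a transcript start), then exon, intron or intergenic. The Ctcf matrix was learned by expectation maximisation, and its threshold was 7.89 bits. The counting, the intervals and the matrix were tested on simulated data in Python 3.11.15 with NumPy 2.4.6. Named genes were those nearest to the 15 strongest members, to the 5 strongest with both SWI/SNF subunits and with each WT mark, and genes of the fixed lists with a member at their start. The genes at the B2 sequences and those with a member only within 10 kb fall outside this rule and were named after their values had been seen. No sequence from chromosome 18 is shown. With 1 library per group no test was run. The alternatives changed the strength limit, the distance to Rad21, the windows, the masking and the weighting by strength.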

Additional observations from a re-analysis of the deposited data

Results flagged for a closer look

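Chromosome X was left out of the members and served to learn the matrix, and it too held such sites. Of its 1041 strong Ctcf summits, 233 had no Rad21 summit within 1 kb, a share of 22.4% (95% Wilson interval 19.95 to 25.01), against 17.5% on the autosomes. It was set apart because it lies outside the chromosomes compared. On chromosome Y the count was 43 of 94 (45.7%, 36.0 to 55.8).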

How the results depend on the processing

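Of 55 alternatives over 8 results, 27 stayed within the counting interval of the reported difference. Values are percentage points, members minus comparison sites. The higher B2 head and repeat shares of members kept their sign in all of them. At a −log10 q of at least 10 (1372 members) the differences were -0.124 for Brg1, 0.338 for Arid1a, -0.27 for WT H3K9me3, 4.94 for promoters, 14.7 for repeats, -11.3 for the Ctcf match and 10.4 for the B2 head. With no Rad21 within 5 kb (3074 members) they were -8.45 for Brg1, -6.76 for Arid1a, -6.66 for WT H3K9me3, -7.17 for promoters, -14.5 for the match and 11.8 for the B2 head. Weighted to the members' strength they were -3.29 for WT H3K9me3, -4.03 for promoters, 11.1 for repeats, 0.885 for the match and 8.09 for the B2 head. With partners within 250 bp they were -2.75 for Brg1, -1.70 for Arid1a and 0.811 for WT H3K27me3. At unmasked summits they were -0.0863 for WT H3K27me3, -1.13 for promoters and -25.7 for the match. Other windows gave 0.564 for promoters (5 kb), 23.5 for repeats (share of the window masked), -17.1 for the match (100 bp) and 14.8 for the B2 head (500 bp). The sign turned for Arid1a and promoters at the stricter limit, for promoters with 5 kb, for WT H3K27me3 with 250 bp and for the match when weighted. The cause was not tested. Leaving out neighbouring summits, or counting only Rad21 summits of at least 2.5 (7950 members), moved no result beyond its interval.

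No paired analysis was possible because each group is 1 library. Read depth, peak widths and mappability are unknown from the lists, and a Rad21 summit just under the calling threshold cannot be told apart from none.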
